A study of Mus musculus with 3 samples.

Results

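The 8 genes described here encode the receptors of the common gamma chain cytokines: the common chain Il2rg, its 5 partner chains Il2rb, Il7r, Il21r, Il4ra and Il9r, and the alpha chains Il2ra and Il15ra. They were chosen by symbol, and all 8 were found among the 55536 mouse genes of the deposited gene table. The 3 libraries of polyadenylated RNA came from regulatory T cells (Tregs), the CD4 T cells that carry the transcription factor Foxp3 and restrain immune responses. The labels call them technical replicates 1, 2 and 3 of biological replicate 1, and each library is named by its number. All form 1 group, from a male adult of 4 months labelled Foxp3CreERT2 x Rosa26YFP, so no comparison between conditions exists. Foxp3CreERT2 drives an inducible Cre recombinase from the Foxp3 gene, and Rosa26YFP is a fluorescent reporter that Cre switches on. The labels give bone marrow haematopoietic cells as the origin of the cells and name no treatment. Neither the sorting of the cells nor whether the libraries share 1 pool of RNA is stated in the labels. All spreads and p-values below therefore describe these libraries, not animals.

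Each common gamma chain receptor is an assembly of chains. The common chain, which binds the kinase Jak3, pairs with a partner chain that binds cytokine and carries Jak1, and the kinases then activate STAT factors. Il2rb serves the receptors of interleukin-2 and interleukin-15, while the alpha chains Il2ra (CD25) and Il15ra raise the affinity for these cytokines and have only short intracellular parts. Tregs depend on interleukin-2 for survival, are known for high Il2ra and low Il7r protein at the cell surface, and make little interleukin-2 themselves.

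The libraries held 9299054, 9188612 and 8284381 expected counts over genes. They were not alike. In library 1, genes with short transcripts were relatively high: the median log2 deviation of TMM-scaled counts (counts scaled by edgeR's normalization factors) from the mean of the 3 libraries was 0.36 in the bin of shortest genes, of median length 463 bases, and -0.22 in the bin of longest genes, of median length 6457 bases. In library 2 these bins stood at -0.19 and 0.08, and in library 3 at -0.16 and 0.15. TPM (a level per transcript length, scaled to the same total in each library) carried a shift as well, with a median log2 deviation of all tested genes of -0.21, 0.12 and 0.09 in libraries 1, 2 and 3. All 9 markers of the Treg list and all 8 pan T cell markers reached 1 TPM in every library, with Foxp3 at 27.6, 43.7 and 47.1 TPM. Markers of red cells summed to 1685 TPM in library 1 and 1497 TPM in library 3, against 9.02 TPM in library 2.

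All 8 receptor genes reached 1 TPM in every library, while 45.9% of all 22028 protein-coding genes did. Their levels spanned more than 2 orders of magnitude, from Il2rg at 1871 ± 11.2 TPM (SD, n = 3) to Il9r at 6.92 ± 2.58 TPM. Il2rg was rank 63 among protein-coding genes by mean TPM, Il2rb was rank 201, Il2ra rank 401 and Il7r rank 735. Il21r and Il4ra followed at ranks 1113 and 1191, Il15ra at rank 4521 and Il9r at rank 7738.

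**Figure D1:**
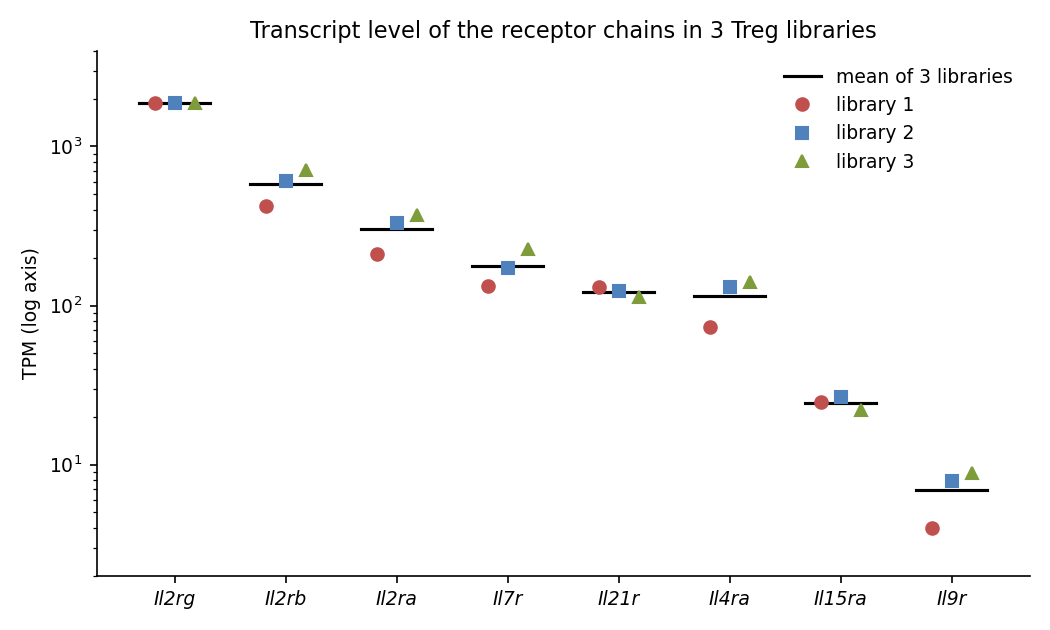
TPM of the 8 receptor genes (log axis) in libraries 1, 2 and 3, with the mean as a bar. Il2rg lies between 1864 and 1884 TPM in all libraries, Il9r between 3.99 and 8.86 TPM, and the ranges of Il2ra and Il7r and of Il21r and Il4ra overlap.

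By TPM, the common chain was the highest member in every library. Il2rg (ENSMUSG00000031304.18, mm10 chromosome X, 101264378 to 101268255, minus strand) had 1864, 1884 and 1865 TPM in libraries 1, 2 and 3, from 20986, 17674 and 15551 counts. The TPM values lay within 1.01-fold of each other, whereas the TMM-scaled counts of library 1 were 1.28-fold those of library 3. Of the TPM of Il2rg, 86.0%, 82.0% and 80.96% went to Il2rg-201, the transcript with the full coding part of 369 codons. No other transcript of Il2rg had a mean share of 10% or more.

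Il2rg is also the member whose counts differed most between the deposited gene tables. A further deposited table holds whole-number counts for the older GENCODE M4 annotation, in place of GENCODE M21, and there Il2rg had 7517, 6398 and 5825 counts. After scaling to shared genes and centring on the median gene, the M4 count was lower by 3.37-fold, 3.30-fold and 3.28-fold (a log2 difference of -1.73 ± 0.02). Another annotated gene, Gm20489, covers all 3878 bases of Il2rg on the same strand, and it had 0 counts in each library of the main table. The part of this overlap in the lower counts was not tested. The tables differ both in annotation and in how counts were made, expected or whole-number, and these cannot be told apart.

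Il2rb, the signalling chain shared by the receptors of interleukin-2 and interleukin-15, was the highest partner chain. Il2rb (ENSMUSG00000068227.9, chromosome 15, 78479256 to 78495271, minus strand) had 423, 609 and 711 TPM, or 581 ± 146 TPM, from 11818, 13550 and 15119 counts. Library 1 was lowest and library 3 highest on both scales. Il2rb has 2 annotated transcripts with the same 1617 coding bases, which differ in their first exon and in the length of the 3′ end. Il2rb-201 took 75.8%, 66.0% and 74.0% of the TPM, and Il2rb-202 took the other 24.2%, 34.0% and 26.0%. Both therefore give the same chain of 539 codons.

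Il7r, the chain that binds interleukin-7, had the third-highest level among the signalling chains. Il7r (ENSMUSG00000003882.5, chromosome 15, 9505788 to 9530176, minus strand) had 133, 172 and 227 TPM, or 177 ± 46.9 TPM, from 3036, 3004 and 3871 counts. Library 3 was highest. In TMM-scaled counts library 2 was the lowest, while in TPM library 1 was. The coding transcript Il7r-201, of 459 codons, took 72.1%, 63.1% and 68.7% of the TPM. Il7r-202, an annotated transcript without a coding part that holds 4 exons and lacks exons 5 to 8 of Il7r-201, took 14.6%, 23.4% and 24.2%.

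Il21r, the chain that binds interleukin-21, differed from the other partner chains in its order of libraries. Il21r (ENSMUSG00000030745.9, chromosome 7, 125603429 to 125633570, plus strand) had 130.35, 124 and 113 TPM, or 122 ± 8.55 TPM, from 2331, 1843 and 1523 counts. Library 1 was highest on both scales, as it was for no other partner chain on either scale. The full transcript Il21r-201, of 529 codons, took 71.5%, 60.5% and 58.5% of the TPM. Il21r-202 took 25.8%, 34.6% and 36.8%, and it skips exon 7 (chr7:125629738-125629834). That exon has 97 bases, which is not a multiple of 3, so the skip also changes the reading frame and Il21r-202 ends after 268 codons. The reference sequences at this junction (GENCODE M21 transcripts on GRCm38, plus strand) are shown because the skipped exon holds the most hydrophobic stretch of the chain. The 30 bases in lower case end exon 6, and the capitals mark exon 7 in Il21r-201 and, in Il21r-202, the bases of the next exons up to and with the stop codon.
Il21r-201: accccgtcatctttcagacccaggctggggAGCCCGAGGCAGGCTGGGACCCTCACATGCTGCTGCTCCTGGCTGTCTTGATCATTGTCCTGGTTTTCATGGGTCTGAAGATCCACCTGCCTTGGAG
Il21r-202: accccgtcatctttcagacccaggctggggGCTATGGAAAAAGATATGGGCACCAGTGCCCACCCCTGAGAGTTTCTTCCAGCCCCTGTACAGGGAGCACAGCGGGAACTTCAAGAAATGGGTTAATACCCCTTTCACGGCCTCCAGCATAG

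The hydrophobic stretch was located on the Kyte-Doolittle scale, on which positive values are hydrophobic, as the highest mean over 19 codons after the first 30 codons, left out because of the signal peptide. Receptors of this family cross the membrane once. In Il21r-201 the highest window had a mean of 2.99 at codons 238 to 256, all in exon 7. In Il21r-202, which lacks that exon, the highest window reached 0.974. The leading coding transcripts of the other members had windows between 2.25 for Il4ra-201 and 2.69 for Il9r-205.

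Il4ra, the chain that binds interleukin-4 and, with Il13ra1, interleukin-13, was the only member led by a transcript whose annotated type is not protein-coding. Il4ra (ENSMUSG00000030748.9, chromosome 7, 125552120 to 125579474, plus strand) had 73.5, 130.03 and 139.6 TPM, or 114 ± 35.7 TPM, from 2283, 3228 and 3275 counts. Library 1 was lowest on both scales. Il4ra-205, of the nonsense-mediated decay type, took 69.4%, 62.2% and 65.6% of the TPM. The full coding transcript Il4ra-201, of 810 codons, took 26.5%, 25.6% and 26.7%. In the second transcript table, estimated from the reads and an index of the same annotation, Il4ra-205 took 82.7%, 78.8% and 80.2%, and Il4ra-201 took 10.005%, 13.7% and 13.5%. A transcript of the nonsense-mediated decay type led 2.94% of 10111 detected protein-coding genes, which is 297 genes. One of any type other than protein-coding led 13.4% of them, which is 1359 genes.

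Il4ra-205 differs from Il4ra-201 by an inserted exon of 114 bases, exon 8 (chr7:125571934-125572047), and by both ends. The inserted exon is shown up to its stop codon because it ends the reading frame, at 230 codons. The 40 bases in lower case end the shared exon before it (chr7:125571551-125571590), and the capitals mark the next 20 bases of each transcript, from the inserted exon in Il4ra-205, where they end with the stop codon TGA, and from the following shared exon in Il4ra-201 (GENCODE M21 transcripts on GRCm38, plus strand).
Il4ra-205: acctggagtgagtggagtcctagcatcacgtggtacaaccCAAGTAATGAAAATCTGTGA
Il4ra-201: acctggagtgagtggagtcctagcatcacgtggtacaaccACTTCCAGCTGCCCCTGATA

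The coding part of Il4ra-205 stops before the hydrophobic stretch of Il4ra-201, which lies at codons 234 to 252 with a mean of 2.25. The highest window of Il4ra-205 was 0.737. As background, a soluble form of the mouse interleukin-4 receptor made by an inserted exon with an early stop is known. The files give no reads over the inserted exon by itself. Il4ra-201 also holds 1674 bases that Il4ra-205 lacks, most of them at its longer 3′ end, so whether the estimated shares rest on the inserted exon or on the coverage of these end bases cannot be told apart.

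**Figure D2:**
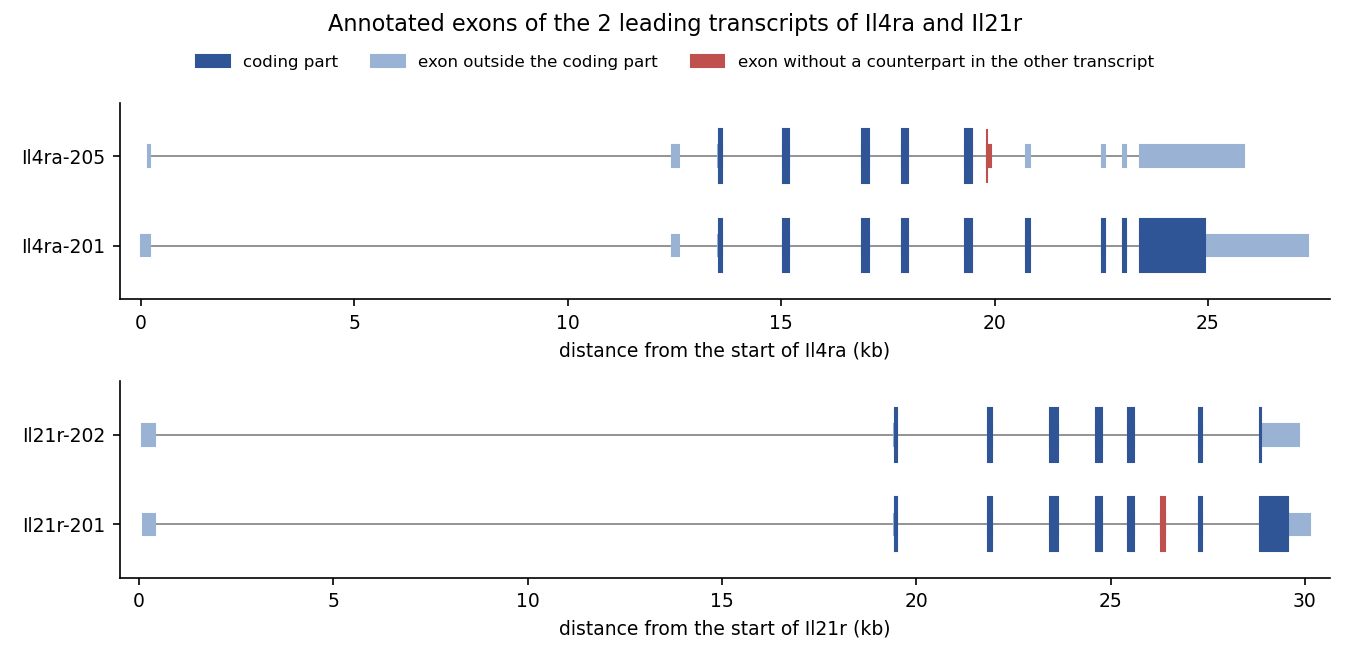
Annotated exons of the 2 leading transcripts of Il4ra and of Il21r, along the distance from the gene start in kb. Tall boxes are coding, low boxes are not, and red marks the exon of 114 bases found in Il4ra-205 alone of its pair and the exon of 97 bases found in Il21r-201 alone of its pair.

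Il9r, the chain that binds interleukin-9, was the lowest member. Il9r (ENSMUSG00000020279.10, chromosome 11, 32187541 to 32200279, minus strand) had 3.99, 7.92 and 8.86 TPM, or 6.92 ± 2.58 TPM, from 103, 134 and 146 counts. Library 1 was again lowest. The transcript shares were not stable between libraries: Il9r-205 took 62.2%, 40.4% and 46.4% of the TPM, Il9r-202 took 0.40%, 40.3% and 36.6%, and Il9r-204 took 37.4%, 0% and 0%. In the second transcript table, Il9r-205 took 68.2%, 40.5% and 44.0%. There Il9r-202 took 31.8%, 39.2% and 30.3%, and Il9r-204 took 0% in each library. The share of Il9r-204 in library 1 of the first transcript table rested on 16 counts.

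Il2ra, the alpha chain of the interleukin-2 receptor, was the third-highest member by TPM. Il2ra (ENSMUSG00000026770.5, chromosome 2, 11642807 to 11693193, plus strand) had 211, 332 and 369 TPM, or 304 ± 83.0 TPM, from 5735, 6717 and 7357 counts. Library 1 was lowest and library 3 highest on both scales. The coding transcript Il2ra-201, of 268 codons, took 76.1%, 65.1% and 72.6% of the TPM but 95.6%, 93.7% and 96.0% of the counts. The gap comes with 2 short transcripts. The retained intron transcript Il2ra-203, 1 exon of 502 bases (chr2:11679708-11680209), took 10.25%, 20.8% and 20% of the TPM from 57, 155 and 149 counts. Il2ra-202, annotated with 44 codons, took 13.6%, 14.1% and 7.39% of the TPM from 194, 269 and 142 counts. Counting Il2ra-201 alone, the level was 160.3, 216 and 268 TPM, or 215 ± 54.0 TPM.

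Il2ra was the other member with lower M4 counts. It had 2845, 3556 and 3967 counts there, lower by 2.43-fold, 2.25-fold and 2.28-fold after centring (a log2 difference of -1.21 ± 0.06). Gm37881, a gene model of 421 bases on the same strand (chr2:11683126-11683546), lies within Il2ra, directly after its exon 6, and had 94, 141 and 115 counts in the main table. Of the 8 members, 2 thus differed by more than 2-fold between the gene tables in every library, both lower in M4, while 13.8% of 10091 compared genes differed and 12.6% were lower. The other 6 members had mean log2 differences between -0.55 for Il9r and 0.31 for Il21r.

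**Figure D3:**
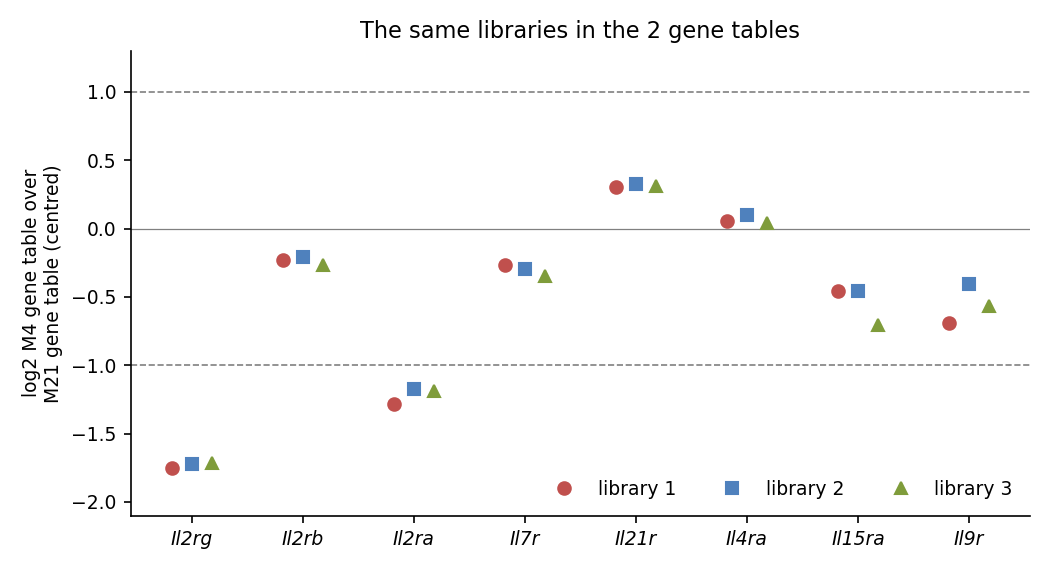
Log2 ratio of the centred M4 count to the M21 expected count for each receptor gene in libraries 1, 2 and 3, with dashed lines at 2-fold. Il2rg, at -1.73 on average, and Il2ra, at -1.21, lie beyond the line in all 3 libraries.

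Il15ra, the alpha chain that presents interleukin-15, was an order of magnitude below Il2ra. Il15ra (ENSMUSG00000023206.16, chromosome 2, 11705290 to 11734317, plus strand) had 24.6, 26.5 and 21.9 TPM, or 24.4 ± 2.29 TPM, from 258, 236 and 198 counts. Il2ra was 8.55, 12.5 and 16.8 times as high in TPM. Il15ra had the most annotated transcripts, 18, and no transcript held more than 44.3% of its TPM in any library. Il15ra-201 took 37.0%, 26.1% and 44.3%, the retained intron transcript Il15ra-208 took 15.0%, 16.0% and 25.04%, and Il15ra-217 took 11.75%, 10.2% and 9.78%. Il15ra-217, with 103 codons, had a highest hydrophobic window of 0.405, against 2.31 in Il15ra-201.

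**Figure D4:**
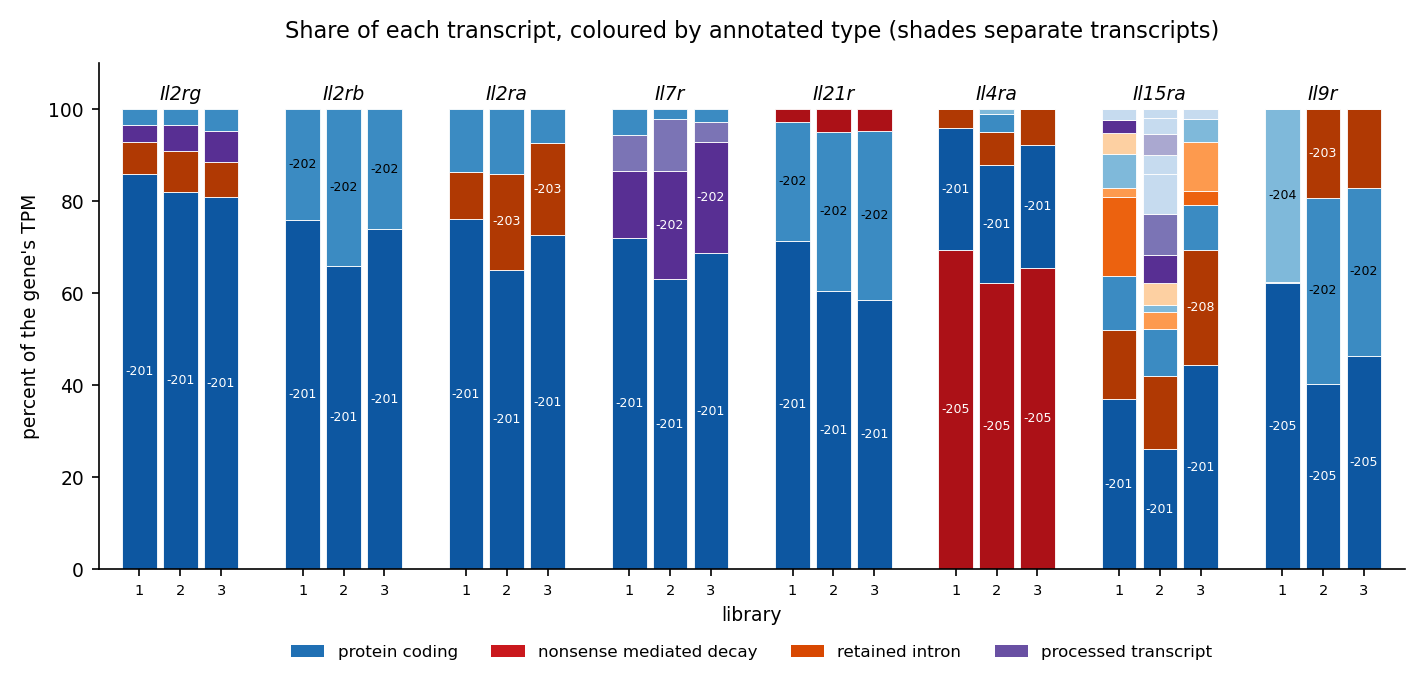
Percent of each receptor gene's TPM taken by each transcript in libraries 1, 2 and 3, coloured by annotated type. The nonsense-mediated decay type takes 62.2% to 69.4% of Il4ra, and the coding transcript Il2rg-201 takes 80.96% to 86.0% of Il2rg.

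The transcript that led each member was the same in both transcript tables for 8 of 8 members, and for 84.3% of 10108 detected protein-coding genes. In TPM of the main table, most members stood clear of the next one. Il2rg was above Il2rb by 4.41-fold, 3.09-fold and 2.62-fold, and Il2rb above Il2ra by 2.01-fold, 1.83-fold and 1.92-fold, with no overlap of ranges. The ranges of Il2ra and Il7r overlapped across libraries, but within each library Il2ra was higher, by 1.58-fold, 1.93-fold and 1.63-fold. The M4 counts did not keep this order in library 1, with 2845 for Il2ra, 3039 for Il7r and 3476 for Il21r. In libraries 2 and 3, Il2ra had 3556 and 3967 M4 counts, against 2915 and 3736 for Il7r. These counts are not per length, and Il2ra has the longest mean length of these genes. With M4 counts per M21 effective length, Il7r was above Il2ra in library 3 as well. On that scale Il21r was above Il2ra in library 2, so the order was not kept in any library. Il21r and Il4ra could not be ordered: Il21r was higher in library 1, and Il4ra in libraries 2 and 3. Counting only transcripts that the annotation tags as principal, Il21r had 93.1, 74.8 and 66.3 TPM, against 19.4, 33.3 and 37.2 TPM for Il4ra.

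More common chain was measured than all partner chains together. The TPM of Il2rg was 2.44, 1.81 and 1.55 times the summed TPM of the 5 partner chains, which was 764, 1043 and 1199. The mean ratio was 1.93 ± 0.457 (SD, n = 3). Within the partner sum, Il2rb held 57.7% ± 2.06, Il7r 17.6% ± 1.20, Il21r 12.8% ± 3.90, Il4ra 11.2% ± 1.46 and Il9r 0.674% ± 0.131. This excess of the common chain depended on the gene table. With M4 counts per effective length, the ratio was 0.779, 0.590 and 0.537, below 1 in every library. The effective lengths used with M4 counts here and below are those of the M21 gene table.

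Among the interleukin-2 receptor chains, Il2ra was 0.498, 0.545 and 0.520 times Il2rb in TPM, or 0.521 ± 0.0234. Il2rb was 0.227, 0.323 and 0.381 times Il2rg, or 0.310 ± 0.0781, with library 1 lowest. Here too the gene table counted: with M4 counts per effective length the mean ratio of Il2ra to Il2rb was 0.265, and that of Il2rb to Il2rg was 0.871. The latter was 0.650, 0.924 and 1.04 in libraries 1, 2 and 3, so in library 3 Il2rb was above Il2rg.

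The libraries differed in most receptor genes, about as widely as in genes at large. A chi-square test of homogeneity against TMM-scaled totals, with Benjamini-Hochberg adjustment over 13071 genes, called 7 of the 8 members, and it called 54.5% of all genes tested and 68.3% of those with 300 or more counts. The largest adjusted p among the 7 was 0.0150, for Il9r, and Il15ra had 0.0939. The ratio of the highest to the lowest library was between 1.24 for Il15ra and 1.51 for Il4ra, with a median of 1.40 over the members, 1.37 over all genes tested and 1.29 over genes with 300 or more counts, a total that all 8 members reached. No member reached 2-fold in TMM-scaled counts, which 8.84% of genes passed together with the test. In TPM, Il9r had a ratio of 2.22, and the other members stayed below 2-fold.

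Part of these differences ran with gene length. Il2rg and Il15ra, with mean lengths of 1543 and 1524 bases, were above their 3-library mean in library 1, by 0.23 and 0.18 on the log2 scale of scaled counts, and the median gene of that length was above it by 0.14. Il2rb, Il2ra and Il7r were below it in library 1, at -0.18, -0.19 and -0.10, against -0.15, -0.15 and -0.10 for the median gene of their lengths. Il21r stood apart from its length bin, with 0.33 in library 1 where the bin had -0.02. Il4ra at -0.33, against -0.19 for its bin, and Il9r at -0.29, against -0.10, were below theirs. In library 3, Il7r was at 0.32 where its bin had 0.05.

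When counts were scaled within 20 bins of gene length, 6 of the 8 members differed, against 44.6% of all genes tested, at any depth. The ratio of the highest to the lowest library was then 1.11 for Il2rg, 1.21 for Il2ra, 1.23 for Il2rb, 1.24 for Il4ra and 1.06 for Il15ra. It stayed at 1.47 for both Il7r and Il21r. Il9r had a ratio of 1.35 and an adjusted p of 0.0916. On the TPM scale, after subtracting the median shift of all genes, Il2rg deviated by 0.20, -0.11 and -0.09 in libraries 1, 2 and 3, although its uncentred TPM was flat.

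Library 1 carried much of the difference. Without it, 4 of the 8 members differed, against 17.4% of the genes then tested, at any depth. No share was computed for genes of the members' depth, either here or with length bins. Without library 1, Il2rg had a log2 ratio of 0.01 between libraries 2 and 3 (adjusted p of 0.726 by the same chi-square test), and Il21r had 0.10 (adjusted p of 0.157). Il9r lost its call without library 1 and also without library 3, with adjusted p of 0.239 and 0.244, and Il15ra passed without library 2, with an adjusted p of 0.0494.

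**Figure D5:**
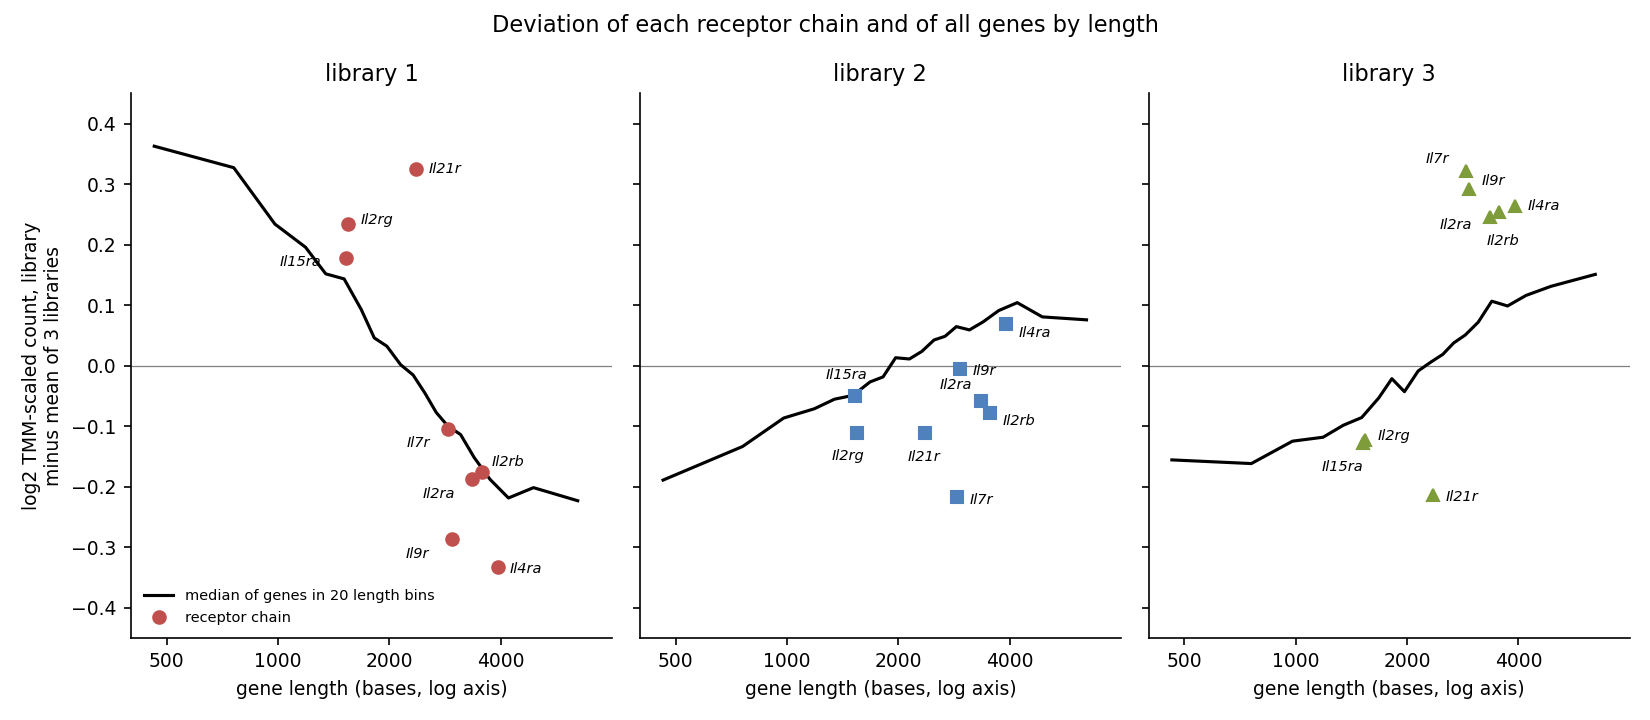
Log2 TMM-scaled count of each receptor gene in a library minus its mean over the 3 libraries, against gene length (bases, log axis), 1 panel per library. The line is the median of all genes in 20 length bins, and Il21r lies 0.33 above its mean in library 1, where the line is near 0.

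The cytokines themselves were nearly undetected. Of the 7 ligand genes 1 reached 1 TPM in every library: Il4, at 3.46, 3.14 and 2.76 TPM from 12, 9 and 7 counts. Il15 had 1.01 ± 0.231 TPM, Il21 had 0.940 ± 0.370, Il2 had 0.563 ± 0.114, Il7 had 0.430 ± 0.261 and Tslp had 0.0433 ± 0.0751. Il9 had 0 counts in each library, which allows up to 0.323, 0.326 and 0.362 CPM (counts scaled to the library total) in libraries 1, 2 and 3 (3 counts, counting error only). Of the 3 alternative partners, Crlf2, which pairs with Il7r for Tslp, was detected at 3.23 ± 1.85 TPM, Il13ra1 had 0.883 ± 0.343 TPM and Il13ra2 had 0 counts.

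Downstream, the 2 kinases were far apart in level. Jak1, carried by the partner chains, had 197, 352 and 329.8 TPM, and Jak3, carried by the common chain, had 11, 16.7 and 12 TPM. Among the STAT factors, Stat6, which carries the interleukin-4 signal, had 217 ± 51.8 TPM, and Stat3, used by the interleukin-21 receptor, had 84.3 ± 21.5 TPM. The interleukin-2 signal carriers Stat5a and Stat5b were lower in mean level than both, at 35.4 ± 8.14 and 33.5 ± 11.7 TPM. All 4 feedback inhibitors were detected, with the STAT5 target Cish highest at 119 ± 15.8 TPM, then Socs2 at 26.8 ± 6.65, Socs3 at 23.3 ± 3.47 and Socs1 at 1.81 ± 0.462. Between libraries, both kinases, these 4 STAT factors and 3 of 4 feedback inhibitors differed, against 54.5% of all genes tested.

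Among the 7 adaptors of Il2rb and Il4ra, 4 were detected. Pik3cd, a catalytic subunit of PI3 kinase, had 115 ± 37.4 TPM, its regulatory subunit Pik3r1 had 68.7 ± 18.2, and the adaptors Shc1 and Grb2 had 27.8 ± 3.21 and 23.5 ± 0.622 TPM. Irs1 and Irs2, the substrates best known at the interleukin-4 receptor, had 0.0133 ± 0.0115 and 0.520 ± 0.0200 TPM, and Gab2 had 0.05 ± 0.0436. Of these 7, 3 differed between libraries: Grb2, Pik3r1 and Pik3cd. Shc1 and Irs2 were tested and did not differ, while Gab2 and Irs1 had too few counts to be tested. The 54.5% of all genes covers tested genes only, so 3 of 7 cannot be compared with it directly.

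Other type I cytokine receptors were detected less widely: 7 of 23, against 8 of 8 common gamma chain receptor genes. This set was picked with these levels known, so the contrast is a description. The highest of the 23 were Il27ra at 281 ± 32.7 TPM, Il6st at 40.1 ± 16.7 and Il12rb1 at 18.2 ± 4.504, followed by Il6ra at 16.0 ± 0.127, Il11ra1 at 8.02 ± 3.10, Il3ra at 5.72 ± 3.35 and Crlf2. Those not detected had mean levels of 1.61 TPM or less, among them Csf2ra, Csf2rb, Csf2rb2, Il12rb2, Il13ra1, Il23r, Il5ra, Csf3r, Epor, Ghr, Prlr, Lepr, Lifr and Osmr.

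In bulk RNA, fewer cells of a type and less RNA per cell cannot be told apart, and other cell types that carry these receptors were partly present. All 8 B cell markers were detected, with summed TPM of 170.2, 138 and 224 in libraries 1, 2 and 3. B cells are known to carry Il21r and Il4ra. Il21r was highest in library 1 and Il4ra in library 3, where the B cell sum was highest too. Of 7 markers of NK and innate lymphoid cells, which carry Il2rb and Il7r, 3 were detected, with sums of 36.1, 42.7 and 47.4 TPM, most of it from Rora, while the defining NK marker Ncr1 had 2, 0 and 2 counts. Of 4 CD8 T cell markers 2 were detected, summing to 18.4, 16.8 and 22.7 TPM, and of 6 plasma cell markers 5, summing to 177, 60.8 and 236 TPM. In libraries 1 and 3, most of the plasma cell sum came from Jchain (98.5 and 79.7 TPM) and Igha (36.4 and 98.5 TPM). In library 2, Jchain and Igha had 4.42 and 1.35 TPM. Most of the sum there came from Xbp1 and Prdm1, at 30.7 and 15.65 TPM.

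Of the 7 myeloid markers 5 were detected, with sums of 33.1, 24.1 and 55.5 TPM, and of the 6 dendritic cell markers 1, with sums of 2.83, 3.46 and 5.13 TPM. None of the 6 markers of mast cells and basophils, which are known to carry Il9r and Il4ra, reached 1 TPM in every library, and Fcer1a, Mcpt8 and Gata2 had 0 counts in each. Red cell markers were detected for 3 of 6 genes, and neutrophil markers for 0 of 6, with sums of 45.7, 0.600 and 2.94 TPM. The part of these cells in the receptor levels was not tested. Library 2, with the lowest sum of red cell markers, lay between the other libraries in TPM for 6 of the 8 members and was highest for Il2rg and Il15ra.

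The receptor genes lie in pairs in part. Il2ra and Il15ra are neighbours on chromosome 2, on the same strand and 12096 bases apart, and Il4ra and Il21r on chromosome 7, on the same strand and 23954 bases apart. In scaled counts Il15ra and Il21r had their highest value in library 1, and Il2ra and Il4ra in library 3, though the difference of Il15ra did not pass the test. The antisense gene Gm44876 overlaps Il4ra and had 0 counts.

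Within 100 kb, 3 to 13 other annotated genes surround each member, of which 2 to 6 were detected. Around Il2rg these were Med12, Snx12 and Foxo4, at 64.2, 43.2 and 3.24 TPM. Around Il2rb they included Rac2 at 2402 ± 75.1 TPM, the highest neighbour of any member, besides Gm36738, C1qtnf6, Kctd17, Mpst and Tst, all at 13.8 TPM or less. Around Il2ra and Il15ra they were Fbh1, Ankrd16, Rbm17 and Pfkfb3, between 16.0 and 31.9 TPM, besides Gm37881. Around Il4ra and Il21r they were Nsmce1 at 92.4 TPM, and Gtf3c1, Kdm8 and D430042O09Rik at 18.01 TPM or less, and around Il7r Capsl and Spef2 at 4.03 and 1.58 TPM. Il9r lies near Nprl3, Snrnp25 and Mpg, at 50.6, 43.9 and 30.03 TPM, and within 100 kb of the globin genes Hba-a1 and Hba-a2. Hba-a1 had 344, 3.59 and 297 TPM in libraries 1, 2 and 3, whereas Il9r was lowest in library 1.

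The genes closest in level to the interleukin-2 receptor chains were found by the root mean square difference of log2(TPM + 1) over the 3 libraries, a description over few points. For Il2ra they were Psap at 0.0639, Pdcd4 at 0.0920 and the kinase gene Jak1 at 0.119. For Il2rb they were Inpp4b at 0.109, Cd6 at 0.144 and Mbnl1 at 0.158, and for Il2rg they were Ftl1 at 0.0508, Ms4a4b at 0.0879 and Oaz1 at 0.118.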

How the data were processed

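The authors deposited, for each library, a gene table with expected counts and TPM, a transcript table with the same units and each transcript's percent of its gene's TPM, both from an alignment to the mm10 transcriptome with GENCODE M21, a second transcript table with estimated counts and TPM from an index of that annotation, and a gene table of whole-number counts for GENCODE M4, per the deposited readme and the file headers. For aligner, quantifiers and counter, name, version and use of strand are not stated in the labels, readme or headers. Entries that are no mouse genes held 0.117% to 0.135% of the counts and were left out.

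Expected counts were rounded. Genes with 30 or more counts were tested by a chi-square test of homogeneity against TMM-scaled totals (edgeR 4.0.16, R 4.3.3; DESeq2 1.42.0 size factors as an alternative), p-values adjusted by Benjamini-Hochberg and a threshold of 0.05, since 1 group allows no contrast. The test covers counting error only, as it estimates no further spread between libraries. The reads also carry no stated molecular identifiers. The test was also run on simulated counts with counting error and set changes in library 1. These had no length trend, unlike the libraries here. Genes at 1 TPM or more in every library were called detected. M4 counts were matched by identifier without version (22195 of 22457), scaled to shared genes, centred on the median log2 ratio and compared where both tables gave at least 1 CPM. Coordinates, transcript types, sequences and coding parts come from GENCODE M21. Python 3.11.15 with numpy 2.4.6, scipy 1.17.1, pandas 2.3.3 and matplotlib 3.10.9 was used.

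Named were all members, the 3 highest and 2 lowest genes and any undetected gene of a pathway list, transcripts with a mean share of 10% or more, genes within 100 kb, and the 3 genes closest in level to Il2ra, Il2rb and Il2rg. Undetected genes near a member are given by count. Some genes of the lists are not reported here. The members and all lists were chosen with earlier results of these data known.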

Additional observations from a re-analysis of the deposited data

How the results depend on the processing

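The number of members detected was 8 under every alternative except 5 TPM, where it was 7. The number of members that differ between libraries was between 6 and 8 with other scalings, filters and tables and 0 when a 2-fold ratio was also asked for, and it was between 4 and 8 when 1 library was left out. Over all genes, the 7120 calls became 1155 with a 2-fold ratio and 2140 without replicate 1. The ratio of the common chain to its partner chains was between 1.68 and 2.12 when 1 library was left out, and 0.635 with M4 counts per effective length, where its direction against 1 turned. The ratio of Il2ra to Il2rb was 0.560 with the second transcript table, 0.265 with M4 counts and 0.370 with principal transcripts only, and between 0.509 and 0.532 without 1 library. The ratio of Il2rb to Il2rg was 0.871 on average with M4 counts, with 1.04 in library 3, and between 0.275 and 0.352 without 1 library. The M4 counts and principal transcripts were chosen as alternatives after seeing the data, as was the rescaled second transcript table below. The leading share of Il4ra was 80.6% in the second transcript table and between 63.9% and 67.5% without 1 library. Restricting shares to coding transcripts gave no value for Il4ra, since its leader is not one. The 2 members that differ between gene tables were 2 under every alternative. The second transcript table gave a lower mean TPM for each member. In it 1 short RNA, Gm29013, took 19.1% to 26.1% of its TPM, and rescaled over protein-coding genes it gave 0.761 to 0.873 times the level of the first. No cause of these changes was tested beyond the values given. No paired analysis was possible because the libraries form 1 group. Depth limits Il9r and Il15ra, with 103 to 258 counts per library, and with 3 technical libraries no spread between animals can be given.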
